A study of Mus musculus with 4 samples.

Results

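Fibrillar collagens are the chains that assemble into the banded fibrils of the arterial wall, and 7 of their genes were followed here in cultured aortic smooth muscle cells after knockdown of *Mettl14*, a subunit of the writer complex that places N6-methyladenosine (m6A) on mRNA. The genes were picked by symbol, as *Col1a1*, *Col1a2*, *Col3a1*, *Col5a1*, *Col5a2*, *Col5a3* and *Col11a1*, and all 7 were found among the 48587 gene symbols of the count table and passed the filter on low counts. The libraries are poly-A mRNA-seq of primary vascular smooth muscle cells (VSMCs) grown out of the descending aorta of C57BL/6J mice aged 8 to 12 weeks and used at passage 5 to 7. Cells received a lentivirus for 1 day and were collected 2 days after fresh medium was added. The virus expressed either a control hairpin against a plant microRNA sequence (shCTR) or a hairpin against *Mettl14* (shMettl14), and each group has 2 libraries with the letters A and B. All cells thus carried a hairpin virus. The sources do not say what the letters stand for or how many mice were pooled, so p-values measure only the spread between these libraries, which may be technical.

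Fibrillar collagens share a long stretch of Gly-X-Y repeats that winds into a triple helix, and they are secreted as procollagens whose end pieces are cut off before fibrils form. Type I collagen, built from α1(I) and α2(I) chains, makes up most of the fibril, type III is a homotrimer abundant in distensible tissue such as the artery, and types V and XI are minor chains that start fibrils and limit their width. VSMCs make more of these chains when they leave the contractile state, and they are a large part of the matrix of a neointima.

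Totals were between 114343653 and 124815868 counts per library, and levels are given as CPM, the counts scaled to the TMM-normalized library size. A count of 0 allows at most 0.0262 CPM, counting error only. *Mettl14* had 2050 and 2154 counts with shCTR and 546 and 568 with shMettl14, so both shMettl14 libraries lay below both shCTR libraries, as the hairpin labels say. Of 9 smooth muscle markers none was at 0. *Acta2* and *Tagln* were between 1616 and 3547 CPM in every library, *Myocd*, the coactivator that drives contractile genes, was at 0.546 and 7.10 CPM in shCTR A and B and 0.918 and 6.60 in shMettl14 A and B, and *Des* was at or under 2.56. The summed smooth muscle markers were 5786 to 6820 CPM with shCTR and 4466 to 4831 with shMettl14. Of the 9 markers 8 were lower with shMettl14 and 1 higher. In 3 of them both shMettl14 libraries were below both shCTR libraries, against 13.3% of all tested genes. *Acta2* had 3547 and 2799 CPM in shCTR A and B and 2171 and 2073 in shMettl14 A and B. Its log2 fold change was −0.58 (standard error 0.21, edgeR unadjusted p = 0.038). Of 7 endothelial markers *Pecam1*, *Cdh5* and *Emcn* were at or above 477 CPM in every library, whereas *Kdr*, *Tek*, *Vwf* and *Cldn5* were at or under 18.9, and the sum was 1662 and 3778 CPM with shCTR A and B and 1565 and 2275 with shMettl14 A and B. The summed markers of striated muscle (at most 23.4 CPM) and leukocytes (at most 15.3) were low. All 5 tested striated muscle markers had both shMettl14 libraries below both shCTR libraries, against 13.3% of all tested genes. The striated muscle list summed to 23.4 and 11.5 CPM in shCTR A and B and 4.96 and 7.20 in shMettl14 A and B. The summed 8 fibroblast and adventitial markers were 798 and 822 CPM with shCTR and 801 and 887 with shMettl14. The part of these other cell types in the values below was not tested, and in bulk RNA fewer cells of a type and less RNA per cell cannot be told apart.

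The bases around the start codon are shown because some of the genes share there a feature that the choice of genes did not use. In each line 30 bases of the longest coding transcript (GENCODE M21, GRCm38) run 5′ to 3′, with 21 bases before the start codon and 6 after it, and capitals mark ATGTCT and its reverse complement AGACAT, whose last 2 bases are the first of the start codon:
*Col1a1*, chr11:94936348-94936377, plus strand: ctacATGTCTagggtctAGACATgttcagc
*Col1a2*, chr6:4505819-4505848, plus strand: ctgcATGTCTaagtggtAGACATgctcagc
*Col5a2*, chr1:45502906-45502935, minus strand: ccacATGTCTcatatttAGACATgatggca
*Col5a1*, chr2:27886795-27886824, plus strand: cggcccgcgcaccccgccggcatggacgta

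In *Col1a1*, *Col1a2* and *Col5a2* both arms of 6 bases were present with 7 bases between them. *Col1a2* matched the *Col1a1* window at 24 of 30 bases and *Col5a2* at 19, whereas *Col5a1* matched at 10, *Col11a1* at 12 and *Col5a3* at 7, and the last 3 held no such repeat. Of 13433 coding transcripts of tested genes, 4 (0.0298%) had both arms at this place, of which only these 3 are reported here. The letters were chosen after the windows had been seen. A stem-loop at this place is known from type I collagen mRNA, where it is bound by the RNA-binding protein LARP6. *Larp6* itself was at 5.36 and 3.41 CPM with shCTR A and B and at 5.31 and 2.74 with shMettl14 A and B, so that the groups overlapped.

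GGACT, a common form of the m6A consensus, was searched on the sense strand of the same transcripts within 100 bases on either side of the stop codon. It was found in 2 of the 7 genes, against 24.7% of 13203 coding transcripts. The windows are shown because methylated sites are enriched near stop codons, with GGACT in capitals:
*Col1a1*, chr11:94951579-94951599, plus strand: aggaattcGGACTagacattg
*Col5a3*, chr9:20770737-20770757, minus strand: atccccagGGACTccagatcc

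The *Col1a1* match begins 30 bases before the stop codon in coding sequence, and the *Col5a3* match begins 88 bases after the first base of the stop codon. The letters do not say whether an adenosine is methylated, and m6A was not analysed here. Over the whole transcript GGACT occurred 14 times in *Col5a1*, 10 in *Col11a1*, 9 in *Col1a1*, 8 in *Col1a2*, 7 in each of *Col5a2* and *Col5a3* and 4 in *Col3a1*. Of the 2 genes with a match by the stop codon, *Col1a1* was lower and *Col5a3* higher in both shMettl14 libraries.

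The 7 genes took 1.04% of all counts in shCTR A (Wilson 95% confidence interval 1.04% to 1.05%), 0.748% in shCTR B (0.747% to 0.750%), 1.08% in shMettl14 A (1.08% to 1.09%) and 0.953% in shMettl14 B (0.951% to 0.954%), intervals that cover counting error only. The groups overlapped. *Col1a1* and *Col1a2* were among the 35 most abundant genes in every library, and *Col5a2* among the 50. On the scale of CPM, which does not correct for length, the 7 genes ranged from 11.2 for *Col5a3* in shCTR B to 3057 for *Col1a2* in shMettl14 B, as the plot of normalized CPM by gene shows.

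**Figure D1:**
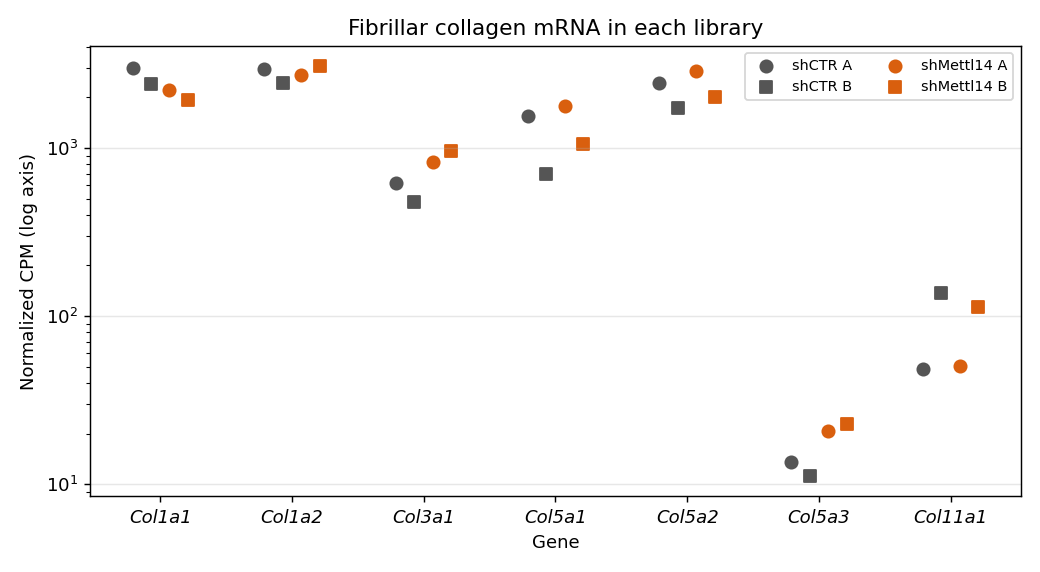
Normalized CPM (log axis) of the 7 fibrillar collagen genes, with 1 point per library, gray for shCTR, orange for shMettl14, circles for letter A and squares for letter B. *Col3a1* and *Col5a3* lie higher in both shMettl14 libraries, *Col1a1* lies lower in both, and *Col5a1* and *Col11a1* separate by letter.

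The first comparison asked which fibrillar collagen mRNAs differ between shMettl14 and shCTR. With edgeR's quasi-likelihood test 0 of the 7 genes had an adjusted p under 0.05, and neither had any of the 18916 genes tested (0%), *Mettl14* included. *Col3a1* and *Col5a3*, 2 of the 7, had an unadjusted p under 0.05, against 1.67% of all tested genes. Both were higher and 0 of the 7 were lower, against 0.656% and 1.01%. DESeq2's Wald test called 4 genes at an adjusted p under 0.05 (0.0211%), none of them a fibrillar collagen, and gave 2 of the 7 an unadjusted p under 0.05, against 2.05% of all tested genes. With the letter as a replicate block edgeR called 9 genes at an adjusted p under 0.05 (0.0476%), again no fibrillar collagen, and 4 of the 7 (*Col3a1*, *Col5a3*, *Col1a1* and *Col5a1*) had an unadjusted p under 0.05, against 10.3% of all tested genes. *Mettl14* had an edgeR adjusted p of 0.0039 with that block. Without the block a difference between letters counts as spread within a hairpin. Both shMettl14 libraries were above both shCTR libraries in 2 of the 7 genes and below them in 1, against 14.7% and 13.3% of all tested genes. Within the letters 4 of the 7 were higher in both and 1 was lower in both, against 30% and 27.7% of all tested genes, and 2 had opposite signs, against 42.3%. The median log2 fold change of the 7 was 0.22 and that of all tested genes was 0.0094. The letters are not stated to mark shared cultures, and the count of 2 genes at an unadjusted p under 0.05 became 0 when shCTR B, shMettl14 A or shMettl14 B was left out.

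*Col3a1* (ENSMUSG00000026043, plus strand of chromosome 1 of GRCm38 from 45311538 to 45349706) encodes the single chain of type III collagen. It had 70437 and 51812 counts in shCTR A and B and 97566 and 124204 in shMettl14 A and B, which is 620 and 480 CPM against 822 and 955. Both shMettl14 libraries were above both shCTR libraries. The mean was 550 ± 99.3 CPM with shCTR and 888 ± 94.3 with shMettl14 (SD, n = 2 libraries each), 1.62 times the shCTR level. edgeR put the log2 fold change at 0.69 (standard error 0.22, unadjusted p = 0.028, adjusted p = 1.0), and the A libraries alone gave 0.41 and the B libraries 0.99. In GENCODE M21 1.44% of its exon bases overlap a gene on the same strand. Reads there could be shared if the annotation used for counting held that gene, which was not checked.

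*Col5a3* (ENSMUSG00000004098, minus strand of chromosome 9 from 20770050 to 20815067) encodes the α3(V) chain, which joins α1(V) and α2(V) in a minor form of type V collagen. It was the least abundant of the 7, with 1540 and 1211 counts in shCTR A and B and 2472 and 2958 in shMettl14 A and B. In CPM these were 13.6 and 11.2 against 20.8 and 22.7, again without overlap. The mean of 12.4 ± 1.66 CPM with shCTR stood against 21.8 ± 1.36 with shMettl14 (SD, n = 2 libraries each), 1.76 times as much. On the log2 scale shMettl14 was higher by 0.81 (standard error 0.23, edgeR unadjusted p = 0.018, adjusted p = 1.0), by 0.62 between the A libraries and 1.02 between the B libraries.

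*Col1a1* (ENSMUSG00000001506, plus strand of chromosome 11 from 94936224 to 94953042) encodes the α1(I) chain. Its counts were 341803 and 260319 in shCTR A and B and 263196 and 252073 in shMettl14 A and B, or 3009 and 2410 CPM against 2216 and 1938. Both shMettl14 libraries were below both shCTR libraries, at 76.7% of the shCTR mean. The log2 fold change was −0.38 (standard error 0.21, edgeR unadjusted p = 0.13). It stayed between −0.54 and −0.22 with each library left out and under the other alternatives, and with the replicate block it was −0.38 (standard error 0.16, edgeR unadjusted p = 0.036, adjusted p = 0.46).

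*Col1a2* (ENSMUSG00000029661, plus strand of chromosome 6 from 4504814 to 4541544) encodes α2(I), the partner of α1(I) in type I collagen. It had 2960 and 2451 CPM in shCTR A and B and 2735 and 3057 in shMettl14 A and B. The groups overlapped, and the letters went opposite ways, by −0.11 on the log2 scale in A and 0.32 in B. The log2 fold change was 0.10 (standard error 0.20, edgeR unadjusted p = 0.65) and turned to −0.032 without shCTR B.

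*Col5a1* (ENSMUSG00000026837, plus strand of chromosome 2 from 27886425 to 28039514) encodes α1(V), the chain found in nearly every type V molecule. It had 1557 and 698 CPM in shCTR A and B and 1775 and 1050 in shMettl14 A and B. Each shMettl14 library was above the shCTR library of its own letter, by 0.19 in A and 0.59 in B on the log2 scale, but the groups overlapped. *Col5a2* (ENSMUSG00000026042, minus strand of chromosome 1 from 45374321 to 45503282) encodes α2(V) and had 2438 and 1733 CPM in shCTR A and B and 2855 and 2006 in shMettl14 A and B. Its log2 ratios were nearly equal in the letters, 0.23 in A and 0.21 in B, while the groups overlapped. The log2 fold changes of 0.32 for *Col5a1* (standard error 0.47) and 0.22 for *Col5a2* (standard error 0.28) were smaller than their standard errors without a block. With the replicate block they were 0.39 for *Col5a1* (standard error 0.17, edgeR unadjusted p = 0.041, adjusted p = 0.47) and 0.22 for *Col5a2* (standard error 0.16, unadjusted p = 0.19), both larger than their standard errors. *Col5a2* lies 24614 bases from *Col3a1* on the opposite strand, with the 3′ ends of both genes facing each other, and the log2 ratios of *Col3a1* were larger in both letters.

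*Col11a1* (ENSMUSG00000027966, plus strand of chromosome 3 from 114030540 to 114220718) encodes α1(XI), a cartilage chain that can also assemble with type V chains. It had 48.3 and 137 CPM in shCTR A and B and 50.4 and 113 in shMettl14 A and B. The letters differed more than the hairpins, since shMettl14 over shCTR gave 0.062 in A and −0.27 in B on the log2 scale. The log2 fold change of −0.18 (standard error 0.62) was 0.76 without shCTR B and 0.29 without shMettl14 A.

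**Figure D2:**
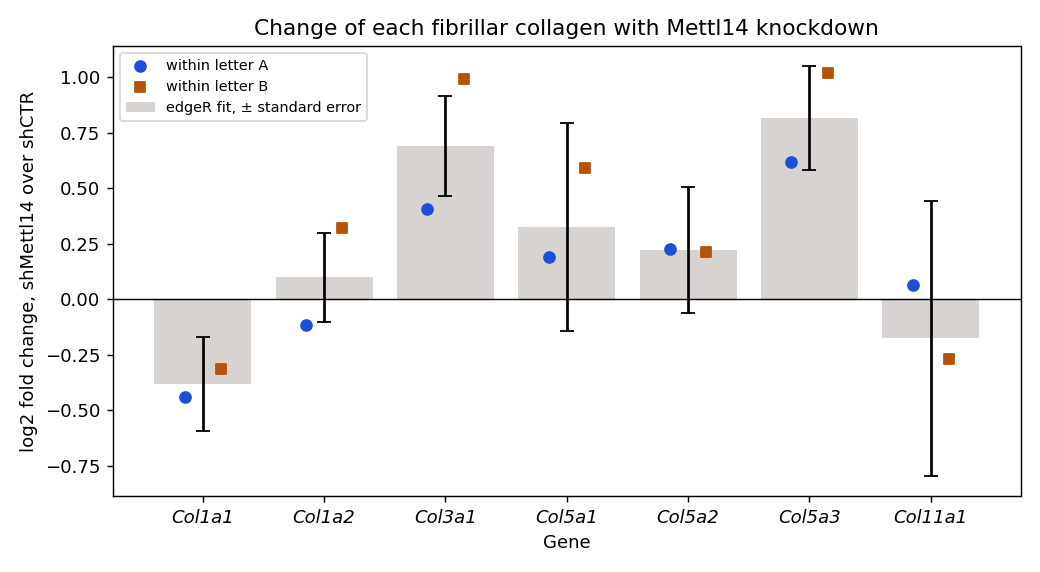
Log2 fold change of each fibrillar collagen gene, shMettl14 over shCTR. Bars are the edgeR estimates with standard errors, circles are the log2 ratios within letter A and squares those within letter B. The bars run from −0.38 for *Col1a1* to 0.81 for *Col5a3*, and the letters lie on opposite sides of 0 for *Col1a2* and *Col11a1*.

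The second comparison asked how the mRNAs stood to each other within a library, where depth and normalization cancel. The count ratio of *Col1a1* to *Col1a2* was 1.02 and 0.983 in shCTR A and B and 0.810 and 0.634 in shMettl14 A and B. Both shMettl14 libraries were below both shCTR libraries, with a mean log2 difference of −0.48 (standard error 0.18), which was −0.33 in A and −0.63 in B. Without shMettl14 A it was −0.66 and without shMettl14 B it was −0.30. The count ratio of *Col3a1* to *Col1a1* was 0.206 and 0.199 in shCTR A and B and 0.371 and 0.493 in shMettl14 A and B. It was thus higher by 1.08 on the log2 scale (standard error 0.21), 0.85 in A and 1.31 in B, the widest separation of the 6 pairs relative to its standard error. It was between 0.87 and 1.28 with each library left out.

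The count ratio of *Col5a2* to its neighbour *Col3a1* was 3.93 and 3.61 with shCTR and 3.47 and 2.10 with shMettl14, again without overlap, with a mean log2 difference of −0.48 (standard error 0.37). Without shMettl14 A this difference was −0.84 and without shMettl14 B it was −0.12. The groups overlapped for *Col5a1* to *Col5a2* (0.17, standard error 0.36), *Col5a3* to *Col5a1* (0.43, standard error 0.63) and *Col11a1* to *Col5a1* (−0.49, standard error 1.64). The ratio of *Col5a3* to *Col5a1* was higher by 0.43 in each letter, and the letters differed by more than that. It was −0.011 without shCTR A, −0.012 without shMettl14 B and 0.87 without either of the other libraries. The other overlapping pairs also changed sign with 1 library left out, from −0.16 to 0.50 for *Col5a1* to *Col5a2* and from −1.82 to 0.84 for *Col11a1* to *Col5a1*. With 2 libraries a group the smallest two-sided p of the exact permutation test is 0.333, which is the p of each of the 3 pairs that did not overlap, and 0.667 after Benjamini-Hochberg adjustment over 6 pairs. Among the 3 pairs that did not overlap, *Col3a1* to *Col1a1* shares a gene with each of the others. All 3 come from the same libraries, so they are not separate observations.

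**Figure D3:**
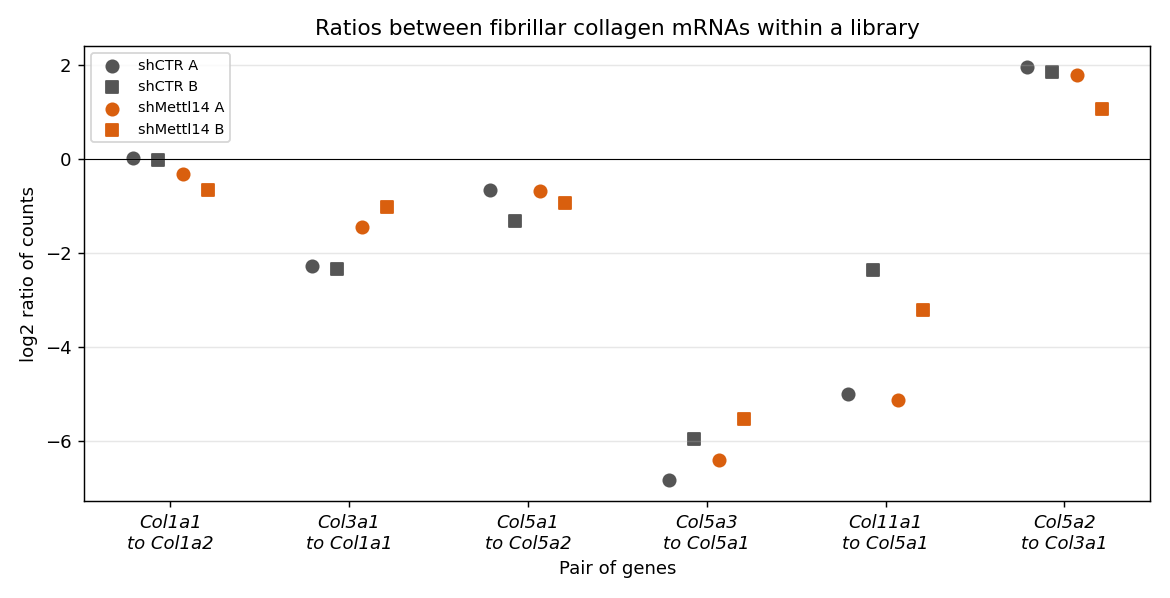
Log2 ratio of the counts of 2 fibrillar collagen genes within each library for 6 pairs, with gray for shCTR, orange for shMettl14, circles for letter A and squares for letter B. The shMettl14 points lie apart from the shCTR points for *Col1a1* to *Col1a2*, *Col3a1* to *Col1a1* and *Col5a2* to *Col3a1*, and overlap them for the other pairs.

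Levels of different genes were compared as CPM per kilobase. By the longest coding transcript, *Col1a2* was highest in every library, between 458 and 572 CPM per kilobase, and *Col5a3* lowest, between 1.83 and 3.72. *Col1a1* came after *Col1a2* in shCTR A and B (507 and 406) and in shMettl14 B (327), but *Col5a2* (431) was above *Col1a1* (374) in shMettl14 A. *Col5a1* was above *Col3a1* in both A libraries (185 against 111 and 211 against 148) and below it in both B libraries (83.0 against 86.2 and 125 against 172). The order of these neighbours therefore depended on the library, whereas *Col11a1* (6.30 to 17.8) lay below the other 5 and above *Col5a3* in every library.

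With the union of all annotated exons, *Col1a1* was at 1.92 and 1.86 times the *Col1a2* level in shCTR A and B and at 1.53 and 1.20 times in shMettl14 A and B. Type I collagen contains 2 α1(I) chains for 1 α2(I) chain. This level depends on the gene model, because the exon union of *Col1a2* over all its annotated transcripts holds 12426 bases and its longest coding transcript 5348. With the longest coding transcript the ratio was 0.917 and 0.887 with shCTR and 0.731 and 0.572 with shMettl14. The difference between the hairpins does not depend on the length.

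By the exon union, *Col1a1* and *Col1a2* together held 57.9% and 63.5% of the summed per-length level of the 7 genes in shCTR A and B and 48.3% and 55.0% in shMettl14 A and B, so that the groups did not overlap. The share of *Col3a1* was 5.25% and 5.50% with shCTR and 7.25% and 9.89% with shMettl14, also without overlap. The 3 type V genes held 36.5% and 29.8% with shCTR and 44.1% and 34.2% with shMettl14, higher within each letter but overlapping. *Col11a1* was at most 1.21%, in shCTR B. By the longest coding transcript type I held 61.2% and 65.7% with shCTR and 52.5% and 59.3% with shMettl14, and *Col3a1* held 6.43% and 6.55% against 8.76% and 11.3%, so both separations stood with either length.

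**Figure D4:**
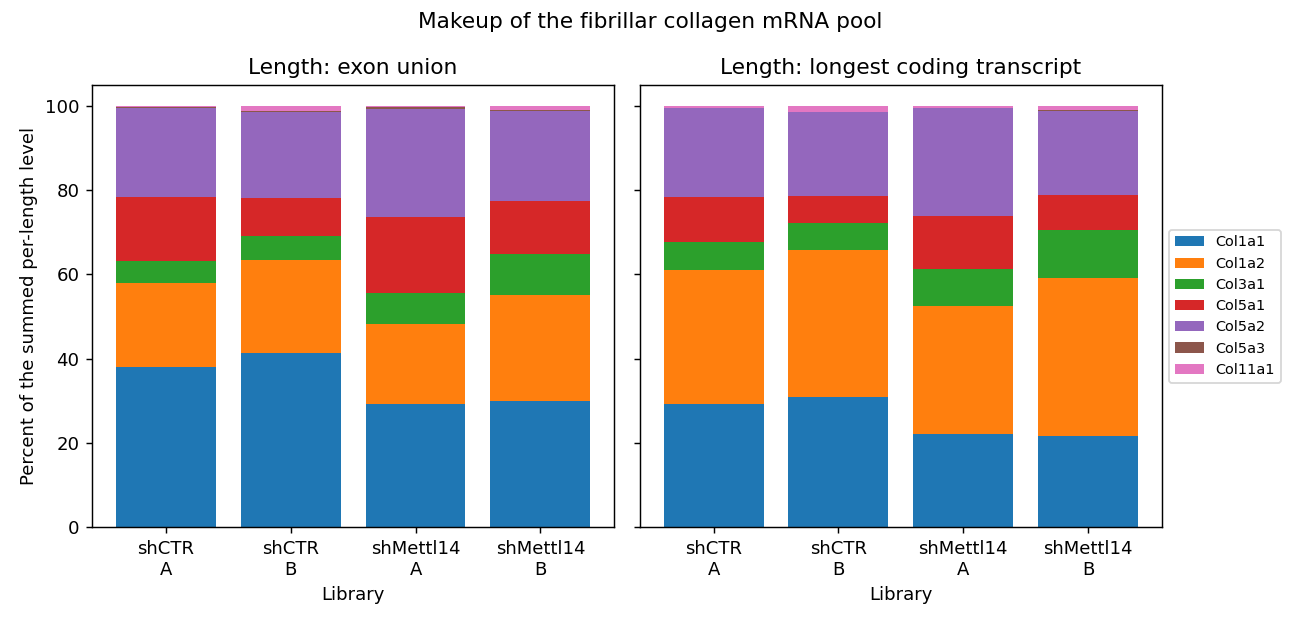
Share of each gene in the summed per-length level of the 7 fibrillar collagens, in percent, for each library, with lengths from the union of exons on the left and from the longest coding transcript on the right. The *Col3a1* segment is larger in both shMettl14 libraries in either panel, 7.25% and 9.89% against 5.25% and 5.50% by the exon union.

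The third comparison asked how the genes differed between libraries of the same hairpin. In a fit with hairpin and letter as terms, 2 of the 7 genes differed between B and A at an adjusted p under 0.05, against 15.6% of all tested genes. Of the 7, 1 was higher in B and 1 lower, against 6.69% and 8.95% of all tested genes. *Col11a1* rose by 1.33 on the log2 scale from A to B (standard error 0.16, edgeR adjusted p = 0.00040), by 1.5 with shCTR and 1.17 with shMettl14. *Col5a1* was lower in B by 0.96 on the log2 scale (−0.96, standard error 0.17, edgeR adjusted p = 0.0036), by −1.16 with shCTR and −0.76 with shMettl14. *Col5a2* had the same sign and missed the threshold (−0.50, standard error 0.16, edgeR adjusted p = 0.054), while DESeq2 called it. For *Col3a1*, *Col5a3* and *Col1a2* the difference between letters was between −0.077 and −0.056, smaller than its standard error. The 2 genes with the clearest separation by hairpin in the fit without a block were not those that separated by letter. In that fit a difference between letters counts as spread within a hairpin, so no conclusion follows from this contrast. The summed endothelial markers were also higher in both B libraries than in the A library of the same hairpin. *Emcn* alone had 649 and 2100 CPM in shCTR A and B and 484 and 1077 in shMettl14 A and B. Of 7 markers only *Emcn* and *Tek* differed at an edgeR adjusted p under 0.05, both higher in B. *Vwf* differed little (0.14 on the log2 scale, standard error 0.17) and *Cldn5* was lower in B (−0.34, standard error 0.43). The part of endothelial cells in the letter differences was not tested.

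**Figure D5:**
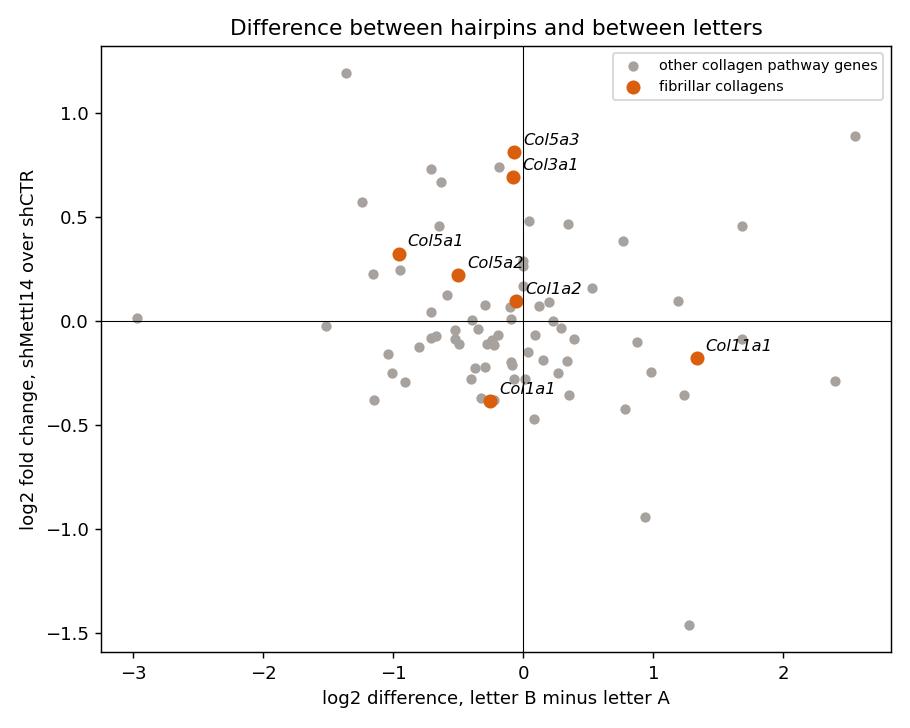
Log2 fold change of shMettl14 over shCTR (vertical) against the log2 difference of letter B minus letter A (horizontal), both from edgeR, for the 7 fibrillar collagens (orange) and 70 tested genes of the collagen pathway (gray). *Col3a1* and *Col5a3* lie high near the vertical axis, and *Col11a1* and *Col5a1* lie to the right and left of it at 1.33 and −0.96.

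Profiles over the 4 libraries were compared by the root mean square difference of centred log2 CPM, as a description over 4 libraries that share letters and hairpins. *Col3a1* and *Col5a3* were closer to each other (0.076) than either was to any of the 1997 genes with a mean of at least 100 CPM. The nearest of those genes were *Sgpl1*, *Sdcbp* and *Ccnl2* for *Col3a1* and, after *Col3a1*, *Sgpl1* and *Cav2* for *Col5a3*. For *Col5a1* the nearest gene was *Ddr1* (0.088), a receptor for fibrillar collagen, and *Emilin1* was also among its nearest 3. For *Col5a2* they were *Susd6*, *Col8a1* and *Hdac7*, for *Col11a1* *Mertk*, *Stab1* and *Adgrf5*, for *Col1a1* *Rps2*, *Dda1* and *S100a16*, and for *Col1a2* *Tm9sf2*, *Gabarapl1* and *Ssr2*. The type I partners were not near each other, since *Col1a2* ranked 955 of 1997 in distance from *Col1a1* (0.27).

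The other genes that make, cut, cross-link, bind or break down fibrillar collagen were 79 listed genes, of which 70 were tested. With edgeR 0 of them had an adjusted p under 0.05, as with all tested genes (0%), and at an unadjusted p under 0.05 there were 0 higher and 1 lower, *Bgn*, against 0.656% and 1.01% of all tested genes. Both shMettl14 libraries were above both shCTR libraries in 7 of the 70 and below them in 8, against 14.7% and 13.3% of all tested genes. The choice of named genes favoured those without overlap. Within both letters 19 of the 70 were higher and 27 lower, against 30% and 27.7% of all tested genes. The median log2 fold change of the 70 genes was −0.077, with 27 higher and 43 lower, and that of all tested genes was 0.0094. DESeq2 and each fit that left out a library likewise called 0 of them.

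*Bgn*, a small proteoglycan that binds collagen fibrils, was at 6181 and 6973 CPM in shCTR A and B and 4777 and 4726 in shMettl14 A and B, without overlap. Its log2 fold change was −0.47 (standard error 0.18, edgeR unadjusted p = 0.0495, adjusted p = 1.0). Its unadjusted p was 0.058 with DESeq2's Wald test. With edgeR it was 0.060 with upper-quartile factors, 0.10 without a filter and 0.052 with a minimum of 10 counts in every library. It was 0.047 with RLE factors and 0.015 with the replicate block (edgeR adjusted p = 0.38). With each library left out the log2 fold change of *Bgn* was between −0.56 and −0.38. Among the 15 hydroxylases and their partners, which modify proline and lysine in the endoplasmic reticulum, 3 of 14 tested genes were higher and 11 lower, with a median of −0.17. *P4ha1*, a catalytic subunit of prolyl 4-hydroxylase, had 497 and 626 CPM in shCTR A and B and 384 and 494 in shMettl14 A and B, which edgeR put at −0.36 on the log2 scale (standard error 0.24).

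The 12 chaperone and export genes had a median of −0.036, and *Creb3l1*, a transcription factor of the secretory pathway that acts on type I collagen genes, was at 64.2 ± 10.1 CPM with shCTR and 49.7 ± 7.98 with shMettl14 (SD, n = 2 libraries each). Of 7 tested proteinases and enhancers that remove propeptides, 4 were lower and 3 higher, with *Pcolce*, the enhancer of C-propeptide cleavage, at 243 ± 11.1 and 200.4 ± 7.08 CPM. In the 5 cross-linking oxidases 4 were lower, and *Loxl3* had 161 and 124 CPM in shCTR A and B against 113 and 106 in shMettl14 A and B. The largest change of the 5 was in *Loxl2*, whose groups overlapped. It had 149 and 315 CPM in shCTR A and B and 88.6 and 153 in shMettl14 A and B. Its log2 fold change was −0.94 (standard error 0.46, edgeR unadjusted p = 0.098). With the replicate block it was −0.89 (standard error 0.16, edgeR unadjusted p = 0.00020, adjusted p = 0.12). The collagen receptor subunit *Itga1* went the other way, with 34.9 and 39.8 CPM in shCTR A and B and 53.7 and 50.3 in shMettl14 A and B, a log2 fold change of 0.48 (standard error 0.20, edgeR unadjusted p = 0.059). Of 9 tested genes for breakdown and uptake, none separated the groups, against 14.7% of all tested genes above and 13.3% below.

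The 4 fibril-forming collagens outside the 7, *Col2a1*, *Col11a2*, *Col24a1* and *Col27a1*, were all tested and 0 had an unadjusted p under 0.05. *Col27a1* was at 4.19 and 2.56 CPM in shCTR A and B and 5.02 and 6.27 in shMettl14 A and B, without overlap (log2 fold change 0.74, standard error 0.39). *Col24a1* was at 1.05 and 0.694 against 1.70 and 1.07, also without overlap. *Col2a1*, the main fibril chain of cartilage, was at 150 and 348 CPM in shCTR A and B and 115 and 275 in shMettl14 A and B, and like *Col11a1* it was higher in both B libraries (1.24 on the log2 scale, standard error 0.16, edgeR adjusted p = 0.00048). Of 5 chondrocyte markers in the table, *Sox9* and *Acan* were present in every library, *Comp* was at most 2.19 CPM, and *Matn1* and *Hapln1* had at most 7 counts. They summed to 107 and 89.1 CPM in shCTR A and B and 95.5 and 47.4 in shMettl14 A and B. Unlike *Col2a1* and *Col11a1*, *Acan* (−0.86, standard error 0.23, edgeR adjusted p = 0.032) and *Comp* (−1.76, standard error 0.39, adjusted p = 0.012) were lower in B on the log2 scale. The part of chondrocyte-like cells in these values was not tested.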

How the data were processed

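Poly-A mRNA-seq of 2 shCTR and 2 shMettl14 libraries was analysed. The authors aligned paired reads to mm10 (GRCm38) with an Ensembl annotation by STAR, then ran featureCounts, and deposited raw counts for each gene. The libraries came from a stranded kit. The versions of STAR and featureCounts, the strand setting used in counting and the treatment of reads on several places are not given in the sources used here. Counts were normalized by TMM and tested over all genes kept by filterByExpr (18916) with edgeR 4.0.16 in R 4.3.3 (robust quasi-likelihood fit, Benjamini-Hochberg adjustment, threshold 0.05), without a block for shMettl14 against shCTR and with the hairpin as a term for letter B against A. Standard errors come from the log2 fold change and the F statistic (its size over root F). Log2 ratios within letters used a prior count of 2. Chain ratios were compared by an exact permutation test. Alternatives were DESeq2 1.42.0, RLE and upper-quartile factors, other filters, a replicate block, each library left out, and other gene lengths.

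The members and lists were chosen with earlier results of these data known. Named were *Mettl14*, the 7 members, in each pathway group any gene past the threshold and the gene with the largest log2 fold change among those without overlap, and the 3 genes nearest to each member, of which 1 is not reported here, nor is 1 start codon window. *Larp6*, *Loxl2*, *Col2a1*, *Col24a1*, the genes in the closing section and marker genes were named outside this rule, after their values were seen. Gene models came from GENCODE M21 (GRCm38), sequences from its transcripts. The paper names an Ensembl release for counting, so lengths and overlaps may differ from the gene models behind the counts. Both edgeR fits were run on simulated counts. Those simulated for the hairpin fit held no difference between letters, so they do not show how that fit performs on these libraries. Python 3.11.15 with pandas 2.3.3 and matplotlib 3.10.9 did the remaining steps.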

Additional observations from a re-analysis of the deposited data

Results flagged for a closer look

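The log2 ratio of shMettl14 over shCTR had opposite signs in the letters for 2 of the 7 genes, as it did in 42.3% of all tested genes. For *Col1a2* it was −0.11 in A and 0.32 in B, a difference of 0.43. For *Col11a1* it was 0.062 in A and −0.27 in B, a difference of −0.33. With 1 library per hairpin and letter these differences could not be tested. Groups of 2 libraries are too small to look for a library that stands apart within its group.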

How the results depend on the processing

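With edgeR 0 genes passed an adjusted p of 0.05, and DESeq2 called 4 and the replicate block 9, none of them among the 7 fibrillar collagens or the collagen pathway genes. The number of fibrillar collagens with an unadjusted p under 0.05 was 2 in the reported fit and 4 with the replicate block, and it was between 0 and 2 with each library left out. Libraries of the same letter deviated together (correlation 0.578 across genes). Log2 CPM correlated at 0.985 between A libraries and 0.977 between B libraries, against 0.953 within shCTR and 0.969 within shMettl14. The letters are not stated to mark pairs, and 2 pairs cannot settle whether they do. Without the hairpin term 1715 genes differed between letters, against 2958 with it. Of 150 fits of the named genes' log2 fold changes 141 kept direction and call, 7 reversed and 2 put *Mettl14* past the threshold. *Col3a1*, *Col5a3* and *Col1a1* kept their direction in all 10 alternatives each. The reversed values all came from fits without shCTR B or shMettl14 A, which leave unequal numbers of the letters, and in each such fit the lone library is assumed to vary like the other group. With each library left out, *Col1a2* ranged from −0.032 to 0.24, *Col5a1* from −0.14 to 1.01, *Col5a2* from −0.056 to 0.48 and *Col11a1* from −0.88 to 0.76. Adjusted p-values of the 7 genes were at or above 0.18 over the alternatives. The per-length ratio of *Col3a1* to *Col1a1* in shCTR was 0.135 by the exon union and 0.216 by the longest transcript, so levels between genes depend on the lengths. Without a library the letter comparison with the hairpin as a term keeps no residual degrees of freedom, and the fit of the letter alone was not repeated without libraries.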

Other observations

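Between the letters, 11 of the 70 tested collagen pathway genes were higher in B and 14 lower at an adjusted p under 0.05 from edgeR, against 6.69% and 8.95% of all tested genes. The 3 genes given here were named after their values were seen. *Col14a1*, a chain that sits on the surface of collagen fibrils, had 322 CPM in shCTR A and 37.6 in shCTR B and 318 in shMettl14 A and 44.5 in shMettl14 B, a log2 difference of −2.97 (standard error 0.17). *Itga11*, a receptor subunit for fibrillar collagen, went the other way, with 26.9 and 151 CPM in shCTR A and B and 24.5 and 121 in shMettl14 A and B (2.40, standard error 0.16). *Aspn*, a small proteoglycan that binds collagen, was at 1.24 and 8.53 CPM in shCTR A and B and 2.99 and 15.1 in shMettl14 A and B (2.55, standard error 0.23).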
